A study of Mus musculus with 8 samples.

Results

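Transcripts of 10 genes that encode interneuron neuropeptides or a protein that binds one (Sst, Cort, Npy, Tac1, Penk, Pdyn, Vip, Cck, Crh and Crhbp) were followed in ribosome-associated RNA from cortical synaptosomes of mice at postnatal day 15. They were chosen by symbol from the 56576 genes of the deposited table, and each symbol had 1 entry. The table holds 8 libraries, of which 4 are controls with the genotype Lhx6-Cre;ErbB4+/+;Rpl22HA/HA. The other 4 are conditional mutants for Erbb4, whose genotype is Lhx6-Cre;ErbB4F/F;Rpl22HA/HA. Animals of both groups carried Lhx6-Cre and 2 copies of the HA-tagged ribosomal protein Rpl22, so the tag was present in controls and mutants alike and Erbb4, the receptor of neuregulins, was deleted in the mutants alone. Lhx6-Cre is active in cells born in the medial ganglionic eminence (MGE) and preoptic area, which form the PV+ and SST+ interneurons of the cortex. Mice of both sexes were used, and the cortices of both hemispheres were collected. Libraries carry replicate numbers 1, 3, 4 and 5 in controls and 2, 3, 4 and 5 in mutants.

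Neuropeptides are made as longer precursors, loaded into dense-core vesicles, cut by proteases on the way and released to act on G protein-coupled receptors. In the cortex most of them are made by GABAergic interneurons, and several serve to name interneuron classes. Sst marks a main class of MGE-derived cells, and Vip marks cells born in the caudal ganglionic eminence (CGE), a lineage in which Lhx6 is not expressed. Cck is made by a class of CGE-derived basket cells and also by cortical excitatory neurons.

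Fragments of the promoters that RefSeq gives for these genes are shown because the cAMP response element of Sst is a textbook example of a neuropeptide promoter element. RefSeq promoters (GRCm38.p6, the 250 bases before and 50 after each start) gave 9 windows for 8 of the 10 genes, not for Penk and Crh. Each fragment is written 5′ to 3′ on the strand of the gene, with the match in capitals, and TGACG on the opposite strand reads CGTCA.
Sst, position -48 from the start, chr16:23890871-23890906, minus strand: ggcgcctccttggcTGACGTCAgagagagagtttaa
Cort, position -18, chr4:149126763-149126795, minus strand: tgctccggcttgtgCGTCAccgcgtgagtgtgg
Tac1, position -43, chr6:7555004-7555036, plus strand: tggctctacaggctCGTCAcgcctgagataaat
Vip, position -79, chr10:5639125-5639157, plus strand: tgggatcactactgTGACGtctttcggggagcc
Cck, position -47, chr9:121495723-121495755, minus strand: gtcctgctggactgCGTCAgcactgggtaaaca
Crhbp, position -64, chr13:95444877-95444909, minus strand: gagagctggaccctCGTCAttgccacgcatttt
The whole element, TGACGTCA, was found in the Sst promoter alone among the 8 genes and in 588 of all 32851 RefSeq promoters (1.79%). Its first 5 letters, TGACG, which the whole element also contains, were found on either strand in 6 of the 8 genes and in 20.8% of all promoters. Letters searched for a TATA box, TATAAA, were found in 2 of the 8 genes, Vip and Crhbp, against 13.6% of all promoters. The Vip matches lay at positions -157, -147 and -30, whereas the Crhbp match lay at position 31, after the start. Such matches describe the sequence and do not show that a factor binds there.

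Values are normalized counts, that is, reads on the constitutive regions of a gene divided by 1 size factor per library. Control libraries held 51010687 to 80226984 reads on genes and mutant libraries 58967504 to 74609576, so that even the lowest value among the 10 genes (Cort, 47.6 in mutant replicate 5) rests on whole reads well above 0. The targeted gene, Erbb4, was at 1640 normalized counts in the library labelled control replicate 1, 5377 in control replicate 3, 4306 in control replicate 4 and 3034 in control replicate 5, and at 1048 to 1711 in mutants. The library labelled control replicate 1 thus lay within the mutant range, and the results are given without it too. Lhx6, a transcription factor of MGE-derived interneurons, had a mean of 1223 ± 445 normalized counts among controls (SD, n = 4) and of 743 ± 220 among mutants (SD, n = 4). Markers of cells outside the Lhx6-Cre lineage were also abundant in the pulled-down RNA, such as Slc17a7, the vesicular glutamate transporter of excitatory neurons, at a mean of 109118 in controls and 98312 in mutants.

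Sst, which encodes the inhibitory peptide somatostatin, lies at chr16:23889581-23890845 of mm10, on the minus strand, in 2 exons. Its normalized count was 186458, 367992, 96107 and 31270 in control replicates 1, 3, 4 and 5 and 143143, 133970, 27867 and 5964 in mutant replicates 2, 3, 4 and 5. The highest control was 11.8 times the lowest, the highest mutant 24.0 times the lowest, and mutant replicates 2 and 3 exceeded control replicates 4 and 5. The log2 fold change, mutant against control, was -1.50 (standard error 1.01) with an adjusted p of 0.62 (limma, two-sided, Benjamini-Hochberg over 31171 genes). An exact permutation test of the difference in mean log2 value gave p = 0.31 (two-sided), where 4 libraries against 4 allow no less than 0.029, so a difference could not be told from the spread between libraries. A gene is named as called where its unadjusted limma p did not exceed 0.05 and its fold change reached 1.5, the thresholds of the study's methods. In bulk RNA, fewer synaptosomes of a cell type and less RNA in each cannot be told apart.

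Cort encodes cortistatin, a peptide close to somatostatin that binds the same receptors (chr4:149125036-149126763). It was far less abundant, at 1272, 4167, 761 and 268 normalized counts in control replicates 1, 3, 4 and 5 and 1212, 1114, 284 and 47.6 in mutant replicates 2, 3, 4 and 5. Its libraries stood in the same order as those of Sst in both genotypes. The log2 fold change was -1.47 (standard error 1.03; exact permutation p = 0.40).

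Npy, the precursor of neuropeptide Y, is made by subsets of SST+ cells and by neurogliaform cells (chr6:49822710-49829503). The normalized counts were 49999, 77396, 18194 and 7934 in control replicates 1, 3, 4 and 5 and 27457, 25567, 7958 and 2568 in mutant replicates 2, 3, 4 and 5. Again mutant replicates 2 and 3 lay between the 2 higher and the 2 lower controls, and the log2 fold change of -1.32 (standard error 0.83; exact permutation p = 0.31) did not pass.

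Tac1 gives rise to substance P and neurokinin A and is found in a subset of PV+ interneurons (chr6:7555061-7562978). Its normalized count was 28924, 47784, 12933 and 4790 in control replicates 1, 3, 4 and 5 and 12734, 12667, 3748 and 2108 in mutant replicates 2, 3, 4 and 5. All mutants were below 3 of the 4 controls, and control replicate 5 was the exception. The log2 fold change was -1.52 (standard error 0.74; exact permutation p = 0.14).

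Among the opioid precursors, Pdyn (chr2:129686549-129699939), the source of the dynorphins that act on the kappa receptor, was much more abundant than Penk. Pdyn was at 71339, 98651, 52610 and 19915 normalized counts in control replicates 1, 3, 4 and 5 and at 41838, 44984, 13995 and 5484 in mutant replicates 2, 3, 4 and 5. Here too control replicates 1, 3 and 4 exceeded every mutant and control replicate 5 did not, and the log2 fold change was -1.42 (standard error 0.68; exact permutation p = 0.14). Penk, the enkephalin precursor (chr4:4133536-4138816), was at 1127, 1096, 423 and 315 in control replicates 1, 3, 4 and 5 and at 491, 433, 286 and 228 in mutant replicates 2, 3, 4 and 5, a log2 fold change of -0.89 (standard error 0.46; exact permutation p = 0.20). Penk overlaps a gene on the opposite strand, A830012C17Rik, and the library kit does not mark strand, so reads of the pair cannot be told apart.

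Crh encodes corticotropin-releasing hormone and Crhbp a secreted protein that binds this peptide. Crh (chr3:19693401-19695396) was the only one of the 10 genes called lower in mutants with limma. Its normalized counts were 4099, 7387, 3547 and 1791 in control replicates 1, 3, 4 and 5 and 2761, 2983, 1247 and 842 in mutant replicates 2, 3, 4 and 5. Control replicates 1, 3 and 4 were above every mutant and control replicate 5 lay between mutant replicates 2 and 4. The log2 fold change of Crh was -1.12 and its standard error 0.48. Its unadjusted limma p was 0.040 and its adjusted p 0.58, and the exact permutation test gave p = 0.14. Without the library labelled control replicate 1 the value was -1.07 with an unadjusted limma p of 0.078, so the call was lost. It was also lost without control replicate 3, without control replicate 4, and without mutant replicate 4 or 5. Crhbp (chr13:95431371-95444832) was at 24203, 23405, 10216 and 4477 in control replicates 1, 3, 4 and 5 and at 14521, 13842, 3195 and 1479 in mutant replicates 2, 3, 4 and 5, a log2 fold change of -1.19 (standard error 0.76; exact permutation p = 0.26).

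Vip and Cck, the peptides that mark cells outside the MGE lineage, had the narrowest range among mutants of the 10 genes. Vip (chr10:5639217-5647614) was at 6887, 4292, 2483 and 3302 normalized counts in control replicates 1, 3, 4 and 5 and at 2104, 2746, 2594 and 3089 in mutant replicates 2, 3, 4 and 5. Control replicate 4 was lower than 3 mutants, and mutant replicate 5, where Sst was at its lowest, held the highest Vip of the mutants. The log2 fold change was -0.60 (standard error 0.29; exact permutation p = 0.14). Cck (chr9:121489825-121495694) was at 11305, 15614, 3648 and 4163 in control replicates 1, 3, 4 and 5 and at 4961, 4768, 3824 and 3658 in mutant replicates 2, 3, 4 and 5. Control replicate 5 lay among the mutants and control replicate 4 slightly below all of them. The log2 fold change was -0.75 (standard error 0.42; exact permutation p = 0.34).

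**Figure D1:**
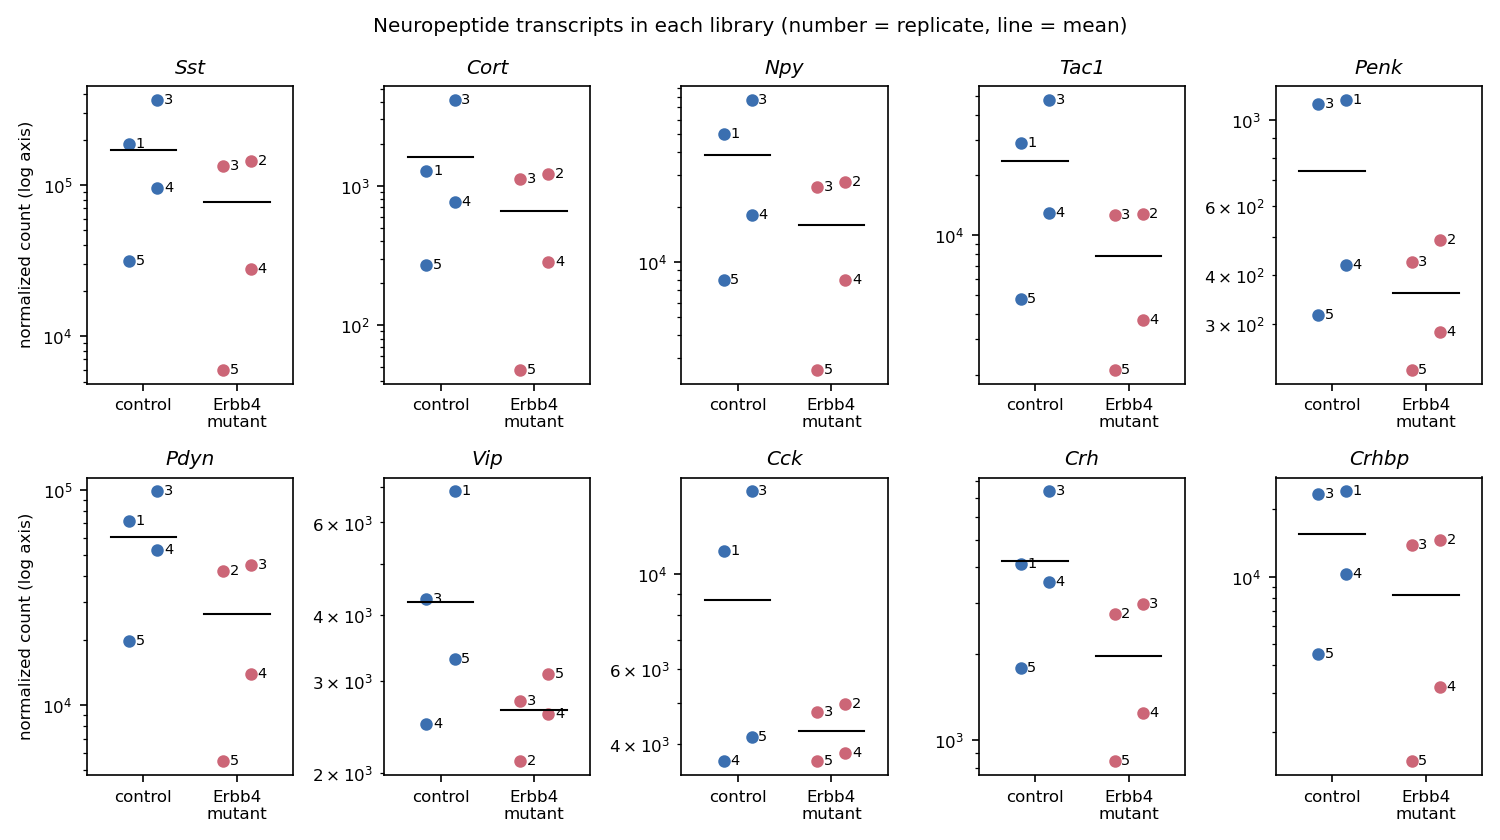
Normalized count (log axis, a separate range in each panel) of the 10 neuropeptide genes in each of the 4 control and 4 Erbb4 mutant libraries. Each point is a library marked with its replicate number, and the line is the mean of the genotype. Control replicates 1 and 3 lie above every mutant in all 10 panels, and the genotypes overlap in all of them.

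Across the list, 10 of 10 genes had a log2 fold change below 0, with a median of -1.26, whereas 46.6% of all 31171 genes tested were below 0 and their median was 0.06. All 10 passed the filter on low values, and 1 of them was called lower and 0 higher, beside 3.17% of all genes called lower and 3.98% called higher. At an adjusted p under 0.05, 0 of the 10 passed with limma, edgeR or DESeq2, beside 0.0449% of all genes with limma. Most of the 10 shared an order of libraries, so they are not 10 separate observations. The unadjusted limma p of the 10 ran from 0.040 to 0.18. In 0 of the 10 was every mutant below every control, an arrangement seen in 2.17% of all genes. In 10 of 10, control replicates 1 and 3 were each above every mutant, and in 9 of 10 control replicate 5 was below the highest mutant.

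Without the library labelled control replicate 1, the median of the 10 was -1.05, all 10 log2 fold changes were below 0, and 0 of them were called, beside 2.06% of all genes called lower. The values without it were -1.29 for Sst, -1.36 for Cort, -1.03 for Npy, -1.27 for Tac1, -0.62 for Penk, -1.27 for Pdyn, -0.33 for Vip, -0.54 for Cck and -0.88 for Crhbp. The size of the difference also rested on other libraries. With mutant replicate 5 left out, the median was -0.68 and the log2 fold changes were -0.56 for Sst, -0.49 for Cort, -0.62 for Npy, -0.81 for Pdyn and -0.56 for Crhbp. With control replicate 3 left out, the median was -0.80, with -0.96 for Sst, -0.79 for Cort, -0.82 for Npy and -0.38 for Cck. Without control replicate 5, the library in which 8 of the 10 genes had their lowest control value, 7 of the 10 were called lower (all but Sst, Cort and Vip), beside 6.35% of all genes. The number called lower was 2 without control replicate 4 (Vip and Cck, beside 4.93%) and 3 without mutant replicate 2 or 3 (Pdyn, Crh and Tac1, beside 3.81% and 3.78%). It was 0 without control replicate 3, mutant replicate 4 or mutant replicate 5, beside 1.77%, 1.84% and 1.65% of all genes. None of the 10 was called higher in any of these fits. With limma's library weights 4 were called lower (Crhbp, Pdyn, Crh and Tac1, beside 5.24%). Count tests on the recovered whole reads called other members too. With edgeR these were Vip, Penk and Cck, beside 3.87% of all genes called lower. DESeq2, the test that the study used, called Vip, Pdyn, Crh, Penk, Cck and Tac1, beside 5.05%.

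Levels can be compared between genes only per length, here as the normalized count per kilobase of the longest protein-coding GENCODE transcript, which approximates the counted regions. On that scale Sst was at 236417 in controls and 107817 in mutants, and ranked 2 in both among the 16590 tested genes with a symbol and a length. Npy followed at 67810 and 28070, Pdyn at 25410 and 11138, Tac1 at 19193 and 6353, Cck at 10867 and 5385 and Crhbp at 8755 and 4643. Crh was at 3187 and 1483, Vip at 2772 and 1721, Cort at 2389 and 981, and Penk was last at 511 and 248. Within libraries the order Sst, Npy, Pdyn, Tac1 held in 8 of 8, and Crhbp was above Crh in 8 of 8. Neighbours lower in the order were not apart beyond the spread of their within-library ratio: Tac1 was above Cck in 5 of 8 libraries, Cck above Crhbp in 5, Crh above Vip in 4 and Vip above Cort in 6. Cort was above Penk in 7, with a mean difference larger than that spread.

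The libraries of a genotype differed more in most of these genes than in the median gene. Among 19137 genes with a mean of at least 100, the median SD of log2 values was 0.50 in controls and 0.37 in mutants, and the 10 neuropeptide genes had a median SD of 1.10 in controls and 1.37 in mutants. All 10 were above the median of all genes in controls and 8 in mutants, where Vip (0.23) and Cck (0.22) were the exceptions. The SD of Sst was 1.51 in controls, a value that 4.30% of genes exceeded, and 2.18 in mutants, exceeded by 0.564%. A wide spread was not particular to peptides. The PV+ marker Pvalb had an SD of 1.29 in controls and 1.57 in mutants. Among GABAergic and MGE lineage genes, Slc32a1 had 0.89 and 1.38, Gad1 0.95 and 0.72, Gad2 0.80 and 0.66 and Lhx6 0.56 and 0.44. Sox6, at 0.08 and 0.20, was below the median of all genes in both genotypes. Replicate 5 was the lowest library for 8 of the 10 genes in controls and for 9 in mutants, and control replicate 3 was the highest control for 7. Without the library labelled control replicate 1, the SD of Sst in controls was 1.78 and that of Vip 0.39. No label ties a library to a sequencing batch, so values within batches could not be given.

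**Figure D2:**
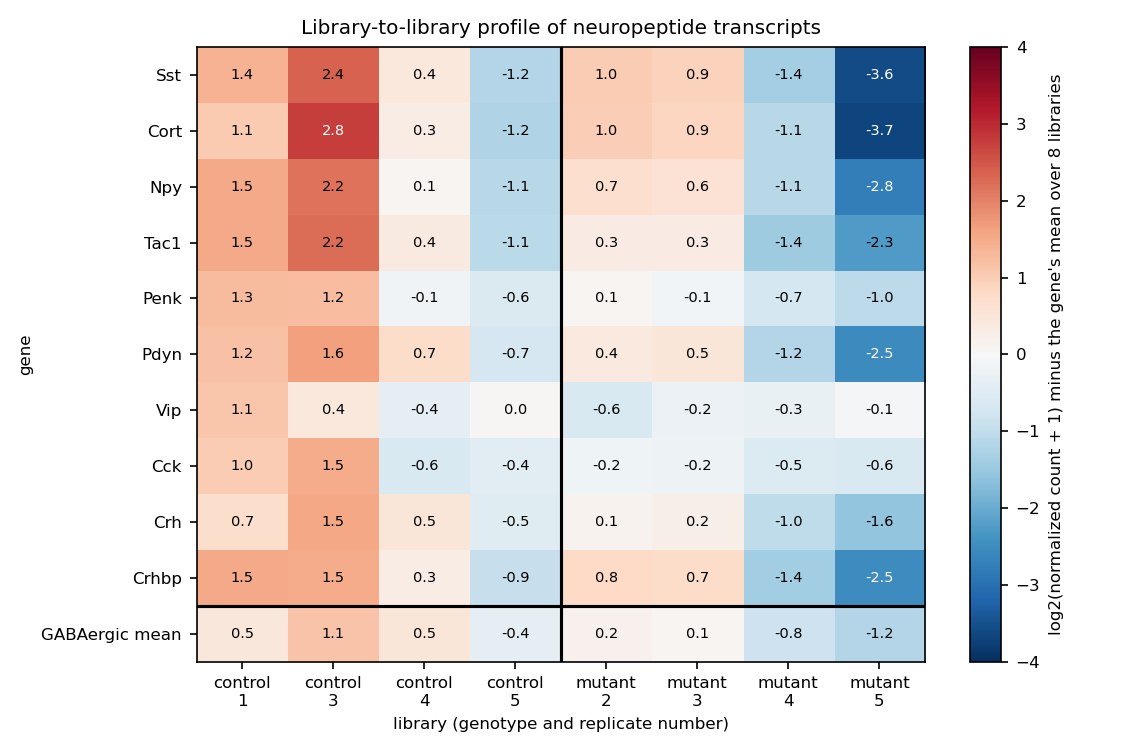
Log2(normalized count + 1) of each neuropeptide gene in each library minus the mean of that gene over the 8 libraries (colour and number), with the geometric mean of 5 GABAergic and MGE lineage genes in the last row. Sst, Cort, Npy, Tac1, Pdyn and Crhbp are high in control replicates 1 and 3 and low in replicate 5 of both genotypes, and Vip departs from this order.

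Likeness of profiles was measured as the root-mean-square difference between log2 values centred on the mean of each gene over the 8 libraries, among 13761 genes with a symbol and a mean of at least 100. It is a description, since the libraries share their depth, their preparation and their genotype. The profile of Sst was closest to Cort (0.21), followed by Rbp4 (0.29), which encodes a retinol-binding protein, and Wif1 (0.37), which encodes a secreted Wnt inhibitor, against a root-mean-square of 1.79 of the Sst profile itself. Npy ranked 4, Crhbp 8, Tac1 11 and Pdyn 12 in likeness to Sst, then Crh 113, Penk 434, Cck 1117 and Vip 4615. Vip was closest to Fbxo2 (0.11), Ccdc34 (0.11) and Timm17a (0.13), none of them a neuropeptide, and Timm17a belongs to the import machinery of mitochondria. Cck was closest to Ndufs5-ps (0.11), a pseudogene whose reads may come from its parent gene, and to Uqcr10 and Ndufs6 (both 0.12), subunits of the mitochondrial respiratory chain, while Sst was at place 12744 in likeness to Cck.

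Ratios within a library cancel its overall scale. The log2 ratio of Cort to Sst ran from -7.19 to -6.46 over the 8 libraries, a 1.66-fold range, although Sst itself differed by more than an order of magnitude. That of Npy to Sst had a 2.28-fold range. By contrast the ratio of Sst to Vip had a 44.4-fold range, with log2 values of 4.76, 6.42, 5.27 and 3.24 in control replicates 1, 3, 4 and 5 and 6.09, 5.61, 3.42 and 0.95 in mutant replicates 2, 3, 4 and 5. Controls and mutants overlapped in this ratio, and mutant replicate 5 was the lowest library. The range was 21.7-fold for Npy to Vip, 17.7-fold for Sst to Cck and 5.18-fold for Penk to Pdyn. In exact permutation tests of the 6 ratios (two-sided, 4 against 4 libraries, Benjamini-Hochberg over the 6), the differences between genotypes ran from -0.91 log2 for Sst to Vip to 0.53 for Penk to Pdyn, with p from 0.40 to 0.86 and adjusted p from 0.82 to 0.86. With the library labelled control replicate 1 left out, the differences ran from -0.96 to 0.65, with exact p from 0.34 to 0.86, where 3 against 4 libraries allow no less than 0.057. Except for Penk to Pdyn, the direction of these differences rested on single libraries. With mutant replicate 5 left out, Sst to Vip (0.12), Sst to Cck (0.12) and Npy to Vip (0.05) turned to above 0 and Npy to Sst (-0.06) to below 0, and Penk to Pdyn was 0.11. Cort to Sst, 0.04 over all libraries, was -0.07 without control replicate 1 and -0.04 without mutant replicate 4. The difference in Sst to Vip was as low as -1.60, without mutant replicate 2, and was -0.41 without control replicate 3. The ratios varied widely within genotypes, and the SD of the Sst to Vip ratio was 1.32 in controls and 2.35 in mutants.

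Genes of the pulled-down lineage that encode no peptide had log2 fold changes of a like sign. Of 5 GABAergic and MGE lineage genes (Gad1, Gad2, Slc32a1, Lhx6 and Sox6) all were below 0, with a median of -0.93. Gad1 and Gad2, which make GABA, were called lower, beside 3.17% of all genes. Their geometric mean was 3814, 6101, 3913 and 2128 in control replicates 1, 3, 4 and 5 and 3143, 2953, 1558 and 1237 in mutant replicates 2, 3, 4 and 5, a log2 difference of -0.86 (exact permutation p = 0.14, two-sided). The median of the 5 was -0.92 without the library labelled control replicate 1, and none was called. When every library was scaled to the geometric mean of these 5 genes, 0 of the 10 neuropeptide genes were called and the log2 fold changes were -0.64 for Sst, -0.61 for Cort, -0.46 for Npy, -0.66 for Tac1, -0.03 for Penk, -0.56 for Pdyn, -0.26 for Crh and -0.33 for Crhbp. Vip and Cck changed sign under this scaling, to 0.26 and 0.10. The scaling moved the median of all genes from 0.06 to 0.91, and that of the 10 neuropeptide genes from -1.26 to -0.40, and it called 0.128% of all genes lower and 16.8% higher. The part of GABAergic content in the fold changes of the neuropeptide genes was not tested.

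**Figure D3:**
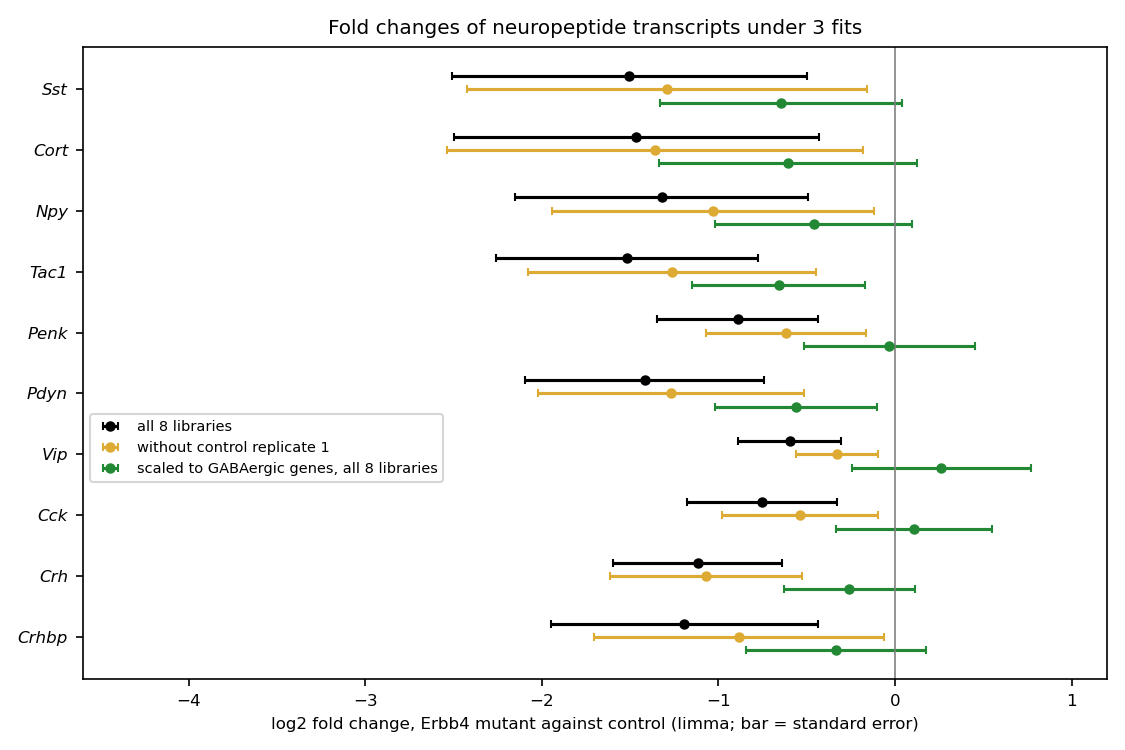
Log2 fold change of each neuropeptide gene, Erbb4 mutant against control, from limma with its standard error as the bar, for all 8 libraries (black), without the library labelled control replicate 1 (yellow) and scaled to the geometric mean of 5 GABAergic and MGE lineage genes (green). Values range from -1.52 to -0.60 with all libraries and lie nearer to 0 in the other fits, and under GABAergic scaling Vip and Cck lie above 0.

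Scaled to the GABAergic mean, the libraries still differed in Sst. The log2 of Sst over this mean was 5.61, 5.91, 4.62 and 3.88 in control replicates 1, 3, 4 and 5 and 5.51, 5.50, 4.16 and 2.27 in mutant replicates 2, 3, 4 and 5. Mutant replicate 5 was the lowest and control replicate 3 the highest, as for Sst itself. For Crh the same quantity was tighter, at 0.10, 0.28, -0.14 and -0.25 in control replicates 1, 3, 4 and 5 and -0.19, 0.01, -0.32 and -0.55 in mutant replicates 2, 3, 4 and 5, with an SD of 0.24 in each genotype (n = 4).

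The machinery that makes and stores peptides was described with 18 genes, all of which were tested. In this list 16 were below 0 with a median of -0.63, 6 were called lower and 1 higher, beside the 3.17% and 3.98% of all genes. The 6 were granins and a related inhibitor: Scg2, Scg3, Scg5, Chga and Chgb, which build dense-core vesicles or chaperone their proteases, and Pcsk1n, an inhibitor of the convertase PCSK1. Chgb was at 198646, 169858, 108615 and 62004 normalized counts in control replicates 1, 3, 4 and 5 and at 81773, 84415, 43237 and 37838 in mutant replicates 2, 3, 4 and 5, a log2 fold change of -1.08 (standard error 0.42; exact permutation p = 0.11). Pcsk1n had the smallest limma p of the list, at -1.16 (standard error 0.40; exact permutation p = 0.086), and the other 4 lay between -0.87 for Scg3 and -1.27 for Scg2. Furin, a convertase of the secretory pathway in most cells, was higher in mutants at 0.62 (standard error 0.24; exact permutation p = 0.029). The convertases that cut neuropeptide precursors, Pcsk1 at -0.10 and Pcsk2 at -0.54, were not called, nor was Cpe, the carboxypeptidase that trims them, at -0.71. The unadjusted limma p was 0.68 for Pcsk1 and 0.032 for Pcsk2 (exact permutation p = 0.057), which missed only the fold change threshold. All adjusted p-values of the list were over 0.05. The median of the list was -0.46 without the library labelled control replicate 1, and Pcsk1n was the only gene called.

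Of the 20 receptors of these peptides, 19 were tested, Cckar being at 0 in every library. In this list 16 were below 0, the median was -0.54, and 2 were called lower and 0 higher, beside 3.17% and 3.98% of all genes. Both were receptors of neuropeptide Y. Npy2r was at 901, 819, 862 and 516 normalized counts in control replicates 1, 3, 4 and 5 and at 478, 547, 381 and 351 in mutant replicates 2, 3, 4 and 5 (log2 fold change -0.81, standard error 0.27; exact permutation p = 0.057). Here only mutant replicate 3 lay above a control. Npy5r was at -1.06 (standard error 0.43; exact permutation p = 0.086), and Npy1r, not called, was at 0.16. The somatostatin receptors Sstr1 to Sstr4 lay between -0.48 and -0.16 and were not called. Sstr5, also not called, had the lowest value of the list, -3.50 (standard error 1.64; exact permutation p = 0.14), on low counts. It was at 142, 41, 35 and 0 in control replicates 1, 3, 4 and 5 and at 0, 0, 12.3 and 0 in mutant replicates 2, 3, 4 and 5. The median was -0.65 without the library labelled control replicate 1, and Npy2r alone was called lower.

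Among 17 other brain neuropeptides, 13 were tested and 12 were below 0 with a median of -0.69. In this list 5 were called lower and 0 higher, beside 3.17% and 3.98% of all genes. Cartpt, the precursor of CART peptides, was at 14485, 22184, 7089 and 3034 normalized counts in control replicates 1, 3, 4 and 5 and at 3935, 4485, 946 and 422 in mutant replicates 2, 3, 4 and 5. Control replicates 1, 3 and 4 exceeded every mutant, and its log2 fold change was -2.48 (standard error 0.79; exact permutation p = 0.086). The other 4 were Pthlh, parathyroid hormone-like hormone, at -1.52, Tac2, the precursor of neurokinin B, at -1.39, Grp, gastrin-releasing peptide, at -0.94, and Adcyap1, the precursor of PACAP, at -0.68. Of the 5, Tac2 alone had every mutant below every control (exact permutation p = 0.029). The hypothalamic precursors Hcrt, Pmch, Oxt and Avp were at or near 0 and were not tested. When the library labelled control replicate 1 was left out, the median was -0.62, and Cartpt and Pthlh were called lower.

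Markers of interneuron classes other than peptides had medians below 0. The 7 SST+ markers had a median of -0.79 with 1 called lower (Chodl, -1.32), the 7 PV+ markers a median of -1.02 with 4 called lower (Pvalb at -2.08, Cplx1 at -1.19, Syt2 at -1.10 and Kcnc1 at -1.02), and the 8 tested CGE markers a median of -0.54 with none called. These medians were -0.85, -1.02 and -0.41 without the library labelled control replicate 1, with 2, 2 and 0 genes called lower. The genes called in that fit were Elfn1 and Nos1 among SST+ markers and Syt2 and Kcnc1 among PV+ markers. Nos1 was at 0.10 with all libraries. Chodl, Pvalb and Cplx1 were no longer called without the library labelled control replicate 1. Of all genes, 3.17% were called lower with all libraries and 2.06% without that library. The summed level of the SST+ markers was 19677 to 38851 in controls and 11998 to 24386 in mutants, that of the CGE markers 14454 to 26434 and 12235 to 15536. No defining marker of these classes was at 0 in every library. Excitatory markers summed to 121950 to 156554 in controls and 113337 to 139776 in mutants, with a median log2 fold change of -0.27, 1 called lower and 1 higher of 9. Their part in the values of Cck was not tested.

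Among glial and vascular markers, genes were called in both directions, beside 3.17% of all genes called lower and 3.98% called higher. The 7 oligodendrocyte markers had a median of -0.61, 2 called lower, and sums of 225374 to 661563 in controls, the highest in control replicate 1, against 196132 to 281650 in mutants. The 6 astrocyte markers (median -0.20) and the 6 microglia markers (median -0.37) held no called gene. The 6 endothelial and mural markers had a median of 0.64 with 3 called higher, and sums of 130162 to 225098 in controls, the lowest in control replicate 1, against 206626 to 224779 in mutants. The 7 markers of striatal projection neurons, which lie next to the cortex and make Penk, Pdyn and Tac1, summed to 15053 to 18347 in controls and 13399 to 17386 in mutants (median -0.29, 1 called higher). Without the library labelled control replicate 1 the oligodendrocyte median was -0.34 and the endothelial and mural median 0.46, and none of the genes in the glial, vascular and striatal lists was called. The part of these cells in the values of the neuropeptide genes was not tested.

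**Figure D4:**
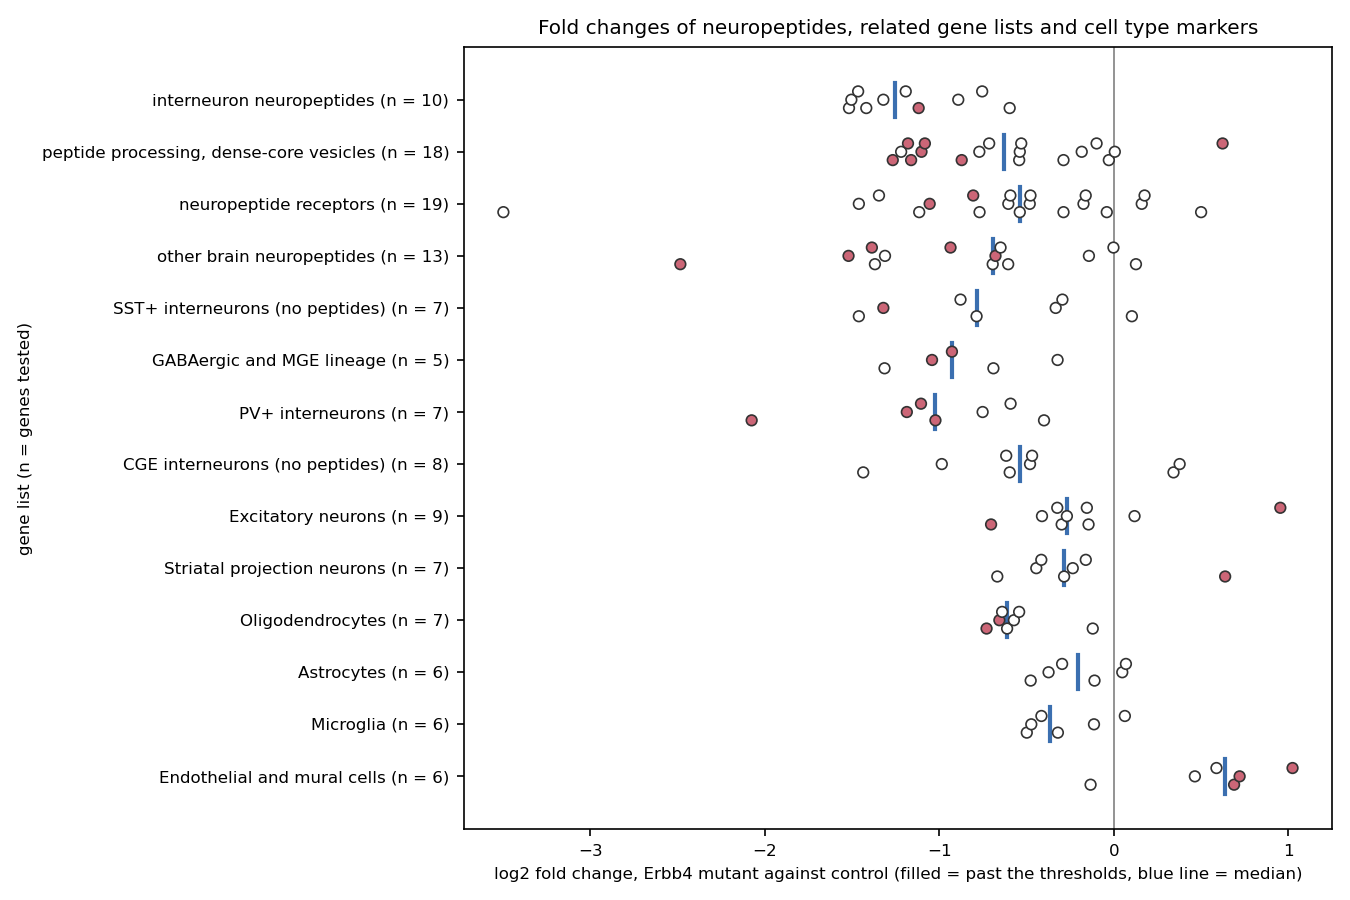
Log2 fold change of every tested gene, Erbb4 mutant against control (limma, 8 libraries), by gene list. Filled points are called genes, and the blue line is the median, which lies at -1.26 for the interneuron neuropeptides and at 0.64 for the endothelial and mural markers.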

How the data were processed

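The genes and gene lists were chosen with earlier results of these data known. RNA bound to HA-tagged ribosomes was purified from cortical synaptosomes, amplified with a kit that does not mark strand and sequenced in 8 libraries, grouped by the genotype in the labels. The deposited values are a signal, normalized counts. The authors mapped the reads to mm10 with STAR 2.4.0, counted reads on constitutive regions of Mouse Fast DB genes and scaled each library by its DESeq2 size factor. Whole reads were recovered for 100% of values (tolerance 0.01), and depth was 51010687 to 80226984 reads on genes. Genes with a mean of at least 10 in either genotype were tested as log2(normalized count + 1) with limma 3.58.1 (eBayes with trend) in R 4.3.3, with Benjamini-Hochberg adjustment. On this scale the fold changes of low genes are understated. Alternatives were edgeR 4.0.16 and DESeq2 1.42.0 on the recovered reads, pseudocounts, filters, scalings, library weights, a replicate block and leaving out each library. Named besides the 10 genes were Erbb4, Lhx6 and, of each list, called genes (up to 6, by p) or the most abundant, and examples of the marker lists. Pcsk1, Pcsk2, Cpe, Npy1r, Sstr1 to Sstr5, Gad2 and Syt2 were named for their roles after their values were seen. The procedure was also run on simulated counts. These were drawn separately for each gene, so they hold no shared differences between libraries besides depth and do not test the procedure against them. P-values weigh the difference between genotypes against the spread between libraries. An item of the GABAergic list is not reported here, and that list and the scaling use the other 5 genes.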

Additional observations from a re-analysis of the deposited data

How the results depend on the processing

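The median log2 fold change of the 10 neuropeptide genes was below 0 in all 19 refits, from -1.79 to -0.40, and none of the 10 was called higher in any setting. The number called lower, 1 in the reported fit, stayed at 1 with pseudocounts of 0.1 and 10, beside 2.96% and 3.51% of all genes. It was also 1 with no filter (beside 2.5%), with a mean of at least 100 (4.25%) and with quantile normalization (3.27%). It was 0 without trend (beside 2.31%), 4 with library weights (5.24%), 3 with edgeR (3.87%) and 6 with DESeq2 (5.05%). Under scaling to GABAergic genes it was 0 (beside 0.128%). It was 0 at an adjusted p under 0.05 (beside 0.0449% in either direction) and 0 at an unadjusted p of 0.01. Leaving out each library gave 0 to 7, beside 1.65% to 6.35% of all genes. Under GABAergic scaling, whose set of 5 genes was settled after seeing the data, Vip (0.26) and Cck (0.10) reversed. The cause of these differences was not tested. With the replicate number as a block, 8 were called lower (all but Vip and Cck) beside 5.51% of all genes. In that fit the unadjusted limma p ran from 6.9e-05 (Npy) to 0.26 (Vip), and the lowest adjusted p was 0.10. Control replicate 1 and mutant replicate 2 share their number with no other library, so they do not enter its difference. Libraries with the same number had deviations from their genotype's mean that correlated at 0.10, 0.098 and 0.082. These were not all over 0.1, and control replicate 5 correlated best with mutant replicate 4, so the numbers were not taken as pairs. Deviations of control replicates 1 and 3 correlated above 0 with mutant replicates 2 and 3 and below 0 with 4 and 5. For control replicates 4 and 5 the signs were the reverse. The paper mentions 2 sequencing batches, and their part in this pattern was not tested. Over the 10 genes and 19 refits, 150 values kept direction and side of the threshold, 8 lost a call (all Crh), 30 gained one and 2 reversed. None of the 6 ratios differed between genotypes in any of 9 refits, but without 1 library the smallest exact p is 0.057.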
